A study of Mus musculus with 23 samples.

Results

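The genes described here are the numbered Zfp genes of the mouse, a naming series that mostly holds C2H2 zinc finger proteins. Members were selected on their symbol, Zfp with a number, and chosen by level, with 2 or more of the 23 libraries required to reach 5 FPKM; Zfp36, Zfp42, Zfp57 and Zfp352 were left out. FPKM gives the fragments sequenced from a gene, scaled by the size of its transcript and by how many fragments the library mapped, so levels can be set side by side between genes of different length. The rule took 171 of 333 such symbols, in a table of 24506 entries of which 13776 were tested. By the same FPKM rule, 9690 of the genes tested had an equal claim on expression, and their shares are given as the like-level background. The levels chose the members: the last ones taken in were Zfp182, Zfp759 and Zfp444, with a second-highest FPKM of 5.011, 5.039 and 5.125, and the first ones left out were Zfp111, Zfp426 and Zfp964, with 4.962, 4.828 and 4.826. A comparison was read as a test only for members that met the rule in libraries outside it, and the remaining members are given as values. Libraries outside a comparison can still share its genotype or stage. For example, Zfp141, Zfp820 and Zfp618 reached a group mean of 5 FPKM only in deletion groups. Zfp646, Zfp707 and Zfp708 did so only in wild-type groups, and Zfp235 only in zygotes. The choice by level favoured such differences, so in these members they are descriptions.

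C2H2 zinc fingers are small protein folds held by a zinc ion, and tandem arrays of them read DNA or RNA sequence. Many of the Zfp genes carry a KRAB domain, which recruits TRIM28 and through it the histone methyltransferase SETDB1 and DNA methylation, and these proteins are known for silencing transposons and guarding imprinted loci in the germ line and early embryo. Others are activators, subunits of chromatin complexes, or proteins of RNA and ribosome metabolism.

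The study deleted Cxxc1 in the mouse female germ line. Cxxc1 encodes CFP1, a CXXC zinc finger protein that binds unmethylated CpG and brings the SETD1 histone H3 lysine 4 methyltransferases to DNA. Fully grown germinal vesicle (GV) oocytes, which rest in meiotic prophase, came from 3-week wild-type and Cxxc1fl/fl;Zp3-Cre females and from 3-month wild-type and Cxxc1fl/fl;Gdf9-Cre females. The embryos, zygotes and 2-cell stages, had wild-type or Cxxc1fl/fl;Zp3-Cre mothers, whose age the labels do not give, and wild-type fathers. Zp3-Cre acts in growing oocytes and Gdf9-Cre from an earlier follicle stage, so the GV models differ in Cre line and in age together and these cannot be told apart. Embryos of deletion females lacked maternal CFP1 and inherited a wild-type paternal allele. Each group had 3 libraries except wild-type 2-cell embryos, which had 2, and nothing states that these were separate animals or collections. All p-values therefore refer to the spread among the libraries at hand, part or all of which may be technical.

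Read depth is unknown because the values are FPKM. Cxxc1 itself lay between 0.626 and 4.16 FPKM in the 12 deletion libraries and between 9.94 and 41.6 in the 11 wild-type ones. Oocyte markers (12 genes) all had a mean of at least 1 FPKM in every group except wild-type 2-cell embryos, where 11 did. At 2 cells their summed FPKM was 1780 and 2120 with wild-type mothers and 5120 to 5490 with deletion mothers, and that of 11 markers of 2-cell embryos was 297 and 395 against 66.9 to 70.7. Granulosa markers, which stand for the somatic cells around the oocyte, summed to 95.0 to 184 in Gdf9-Cre oocytes and 38.4 to 41.4 in their wild types, with 7 of 13 tested markers higher. Stromal markers summed to 6.72 to 9.21 there against 0.345 to 0.932, and 2-cell markers to 103 to 156 against 38.1 to 51. In Zp3-Cre oocytes 2-cell markers summed to 72.3 to 93.2 against 38.5 to 44.2 and stromal markers to 3.73 to 4.93 against 0.438 to 0.903. In deletion zygotes epithelial and oviduct markers summed to 116 to 123 against 50.9 to 65.8, with 1 of 6 markers higher. Deletion 2-cell library 3 stood apart, with a correlation of 0.936 to 0.942 with the other libraries of its group, a granulosa sum of 247 against 22.5 and 25.4, and a stromal sum of 196 against 3.86 and 4.45. The part of these signals in the results below was not tested, and in bulk libraries fewer cells of a type and less RNA per cell cannot be told apart.

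Most members were expressed in oocytes, and in the deposited FPKM their median level was lower in zygotes. The direction of this change depended on the scaling, as given below. The median over members of the group mean was 7.29 FPKM in 3-week and 7.76 in 3-month wild-type oocytes, 3.55 in wild-type zygotes and 7.04 in wild-type 2-cell embryos. In the deletion groups the same median was 6.91 in Zp3-Cre oocytes, 7.52 in Gdf9-Cre oocytes, 5.11 in zygotes and 5.16 in 2-cell embryos. The summed FPKM of all members was 2460 to 2503 in wild-type zygotes and 2197 to 2254 in deletion zygotes, so the sum was lower where the median was higher. At 2 cells it was 2546 and 2676 in wild types and 1917 to 2114 after deletion, with no overlap at either stage. In each group 10 to 13 members had a mean of 50 FPKM or more, and these held 39.2% of the sum in 3-week wild-type oocytes, the lowest share, and 52.7% in wild-type zygotes, the highest.

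**Figure D1:**
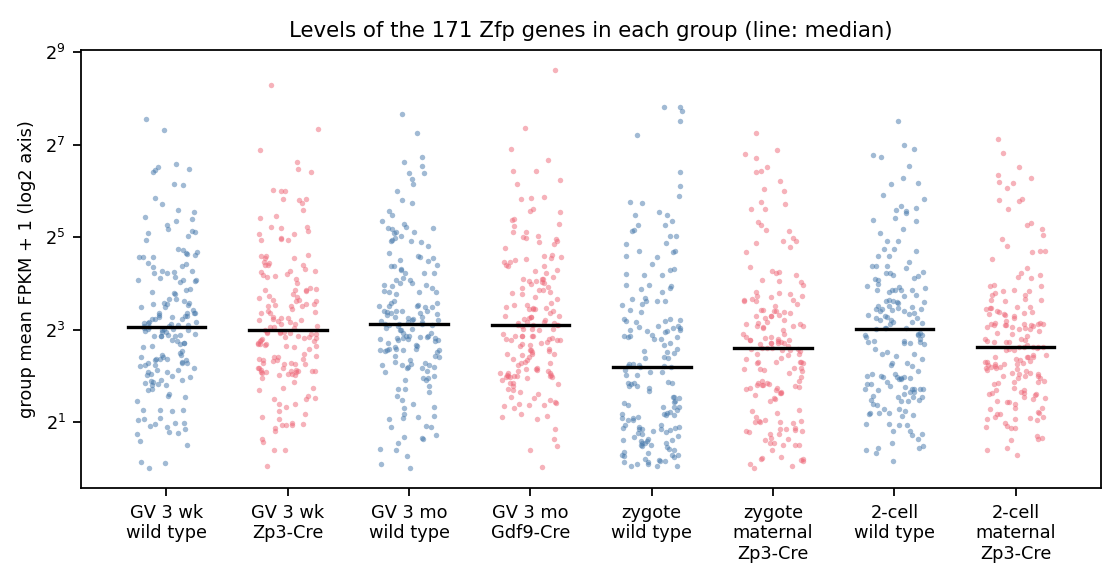
Group mean FPKM + 1 of each of the 171 members (points, log2 axis) in the 8 groups, blue for wild type and red for deletion, with the median as a line. Wild-type zygotes have the lowest median, 3.55 FPKM, and the widest spread towards 0.

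A core of 43 members reached a mean of 5 FPKM in all 8 groups, 36 did so in a single group, and 5 in none. Of the 36, 25 reached it in wild-type 2-cell embryos alone, among them Zfp622, Zfp1, Zfp809 and Zfp281. Highest in oocytes was Zfp296, a factor that promotes reprogramming to pluripotency, at 191, 190.7 and 183.4 FPKM in 3-week wild types, against 26.1, 34.5 and 24.3 in wild-type zygotes. The highest member in deletion 2-cell embryos was Zfp706, at 132.3, 150 and 131.3 FPKM, where wild types had 127.9 and 123. Zfp513, Zfp957 and Zfp212 led wild-type zygotes with means of 223.2, 226 and 212.2 FPKM. The libraries of these 3 genes overlapped in wild-type zygotes, so their order there is within the spread.

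Between wild-type 3-week oocytes and wild-type zygotes, 93 members fell and 39 rose. Among all genes tested 50.7% fell and 19.4% rose, and at like level 57.7% and 24.4%, so the members followed the background. Of the members that met the rule elsewhere, 169 in number, 93 fell and 38 rose. The median member changed by -0.65 in log2(FPKM + 1), the scale of every log2 difference given here (± marks its standard error), and the median gene by -0.47. Direction depended on scaling: the median of the members was -0.32 with median-of-ratios scaling and 0.21 with quantile normalization, where 60 fell and 74 rose, the rising share of calls going from 29.5% to 39.4% and 55.2%. Those scalings aim to make the typical gene equal between libraries, which FPKM does not.

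Single members moved far more than any scaling. Zfp61 had 29.3, 29.4 and 30.1 FPKM in wild-type oocytes and 0.861, 0.888 and 0.701 in zygotes (log2 difference -4.08 ± 0.18 SE, adjusted p = 7.7e-14). Zfp839, Zfp524, Zfp791 and Zfp414 made up the rest of the 5 largest falls, with log2 differences of -3.43 ± 0.14, -3.38 ± 0.27, -3.27 ± 0.13 and -3.11 ± 0.18. Against that trend, Zfp568, a KRAB protein that represses the placental promoter of Igf2, stood at 5.61, 5.05 and 6.5 FPKM in oocytes and 30.2, 31.2 and 32.7 in zygotes (log2 difference 2.27 ± 0.14 SE, adjusted p = 9.02e-12). Zfp235, Zfp46, Zfp106 and Zfp616 also rose, by 2.19 ± 0.18, 1.96 ± 0.09, 1.92 ± 0.11 and 1.63 ± 0.15 on the log2 scale. Zfp235 reached a group mean of 5 FPKM only in zygotes of either genotype, so its rise is a description. In all 10 of these members the oocyte and zygote libraries did not overlap.

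From wild-type zygote to wild-type 2-cell embryo, 76 members rose and 46 fell. All genes tested gave 44.5% and 24%, and genes of like level 47.4% and 30.7%. Some members were taken in through the libraries compared here: of 145 members meeting the rule elsewhere, 51 rose and 45 fell. Quantile normalization turned the median of the members from 0.21 to -0.47 and raised the falls to 85, the rising share of calls being 62.3%, 62.1% with median-of-ratios and 38.8% with quantile normalization. This stage comparison shares the wild-type zygotes with the one before it.

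Zfp707 showed the largest rise of this step, from 0.343, 0.322 and 0.931 FPKM in zygotes to 110 and 107.4 in 2-cell embryos (log2 difference 6.19 ± 0.26 SE, adjusted p = 8.53e-14). Zfp217, a partner of CoREST-type corepressor complexes, rose from 1.69, 1.58 and 1.22 to 60.4 and 51.4 FPKM (log2 difference 4.51 ± 0.14 SE, adjusted p = 1.03e-15). Zfp143, an activator that binds promoters and chromatin loop anchors, rose by 3.23 ± 0.15, Zfp771 by 3.34 ± 0.36 and Zfp672 by 3.34 ± 0.39, the last with 2-cell libraries as far apart as 22.2 and 10.2 FPKM. Zfp60 went the other way, from 49.7, 58.8 and 51.2 to 2.64 and 1.88 FPKM (log2 difference -4.06 ± 0.14 SE, adjusted p = 4.06e-15). Zfp735, Zfp235, Zfp616 and Zfp692 fell with it, their log2 differences being -3.48 ± 0.15, -3.24 ± 0.20, -3.21 ± 0.17 and -3.06 ± 0.19. Since Zfp235 was taken in through zygotes, its fall is a description. No zygote library overlapped a 2-cell library in any of these members.

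The count of members called for age depended on the fit: between 3-week and 3-month wild-type oocytes 9 were called, 7 higher and 2 lower at 3 months, but 50 with array weights and 45 with a fit on the groups compared. The count of 9 is 5.26% where 3.95% of all genes tested and 4.37% at like level were called. Zfp109 had 4.17, 3.1 and 3.2 FPKM at 3 weeks and 16.1, 14.5 and 16.5 at 3 months (log2 difference 1.9 ± 0.16 SE, adjusted p = 4.34e-07). Zfp108, its neighbour in the genome, had 42.6, 40.7 and 44.4 and 86.2, 81.9 and 79.3 FPKM (log2 difference 0.94 ± 0.16 SE, adjusted p = 0.00155). Zfp616 (0.7 ± 0.15), Zfp94 (-0.77 ± 0.18) and Zfp512 (-0.56 ± 0.14) were also called. The count was 5 without 3-week wild-type library 3 or without 3-month wild-type library 1, and the calls of Zfp616, Zfp94 and Zfp512 were each lost without some wild-type libraries. For Zfp616 these were 3-week libraries 1 and 3 and 3-month library 2. For Zfp94 they were 3-week libraries 2 and 3 and 3-month libraries 1 and 3, and for Zfp512 any of the 6.

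In 3-week Zp3-Cre oocytes the members split both ways, 41 higher and 32 lower than in wild types. This compares with 18.3% of all genes tested called higher and 11.3% lower, and with 20.8% and 13.5% at like level, where the members gave 24.0% and 18.7%. In 3-month Gdf9-Cre oocytes 48 members were higher and 53 lower, 28.1% and 31.0%, while 34.2% of all genes tested were higher and 15.2% lower (36% and 18.3% at like level). In this model members fell about as often as they rose, where over all genes tested rises outnumbered falls. A 2-fold change was passed upward and downward by 5 and 4 members at 3 weeks and by 12 and 12 at 3 months. Among members that met the rule outside the 3-month libraries, 9 and 12 passed it. The share of all genes at this cut is not given, so these counts are descriptions.

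The median member differed by 0.06 at 3 weeks and 0.03 at 3 months, against 0.09 and 0.20 for the median gene. With median-of-ratios scaling the members' medians were 0.01 and -0.08, and with quantile normalization -0.01 and -0.18, so that the sign of the median depended on the scaling in both models. The higher share of calls went from 56.2% to 47.8% and 41.9% at 3 weeks and from 47.5% to 37.3% and 30.1% at 3 months under those scalings. Almost all members met the rule outside these comparisons, 170 at 3 weeks (40 higher, 32 lower) and 161 at 3 months (43 and 50).

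The GV models share no library, and their calls overlapped in part. Of the members higher, 30 were shared, 73.2% of the 3-week and 62.5% of the 3-month calls, where all genes tested gave 84.4% and 45.1% and genes of like level 86% and 49.5%. Of those lower, 28 were shared, 87.5% and 52.8%, against 73.1% and 54.2% of all genes tested and 76.4% and 56.2% at like level. Across the 171 members the log2 differences of the models correlated at r = 0.785, a description over genes that share length, annotation and library kit. Zfp820 was the largest rise at 3 weeks, 1.36, 1.58 and 1.12 FPKM in wild types and 6.89, 5.96 and 5.56 after deletion (log2 difference 1.6 ± 0.21 SE). At 3 months it had 1.93, 1.6 and 1.85 and 8.12, 7.86 and 7.32 FPKM (log2 difference 1.65 ± 0.21 SE). No wild-type group of Zfp820 reached a mean of 5 FPKM, so deletion libraries took it in and both differences are descriptions. The deletion libraries lay above every wild-type library in both models.

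Zfp771 rose as well, from 0.488, 0.625 and 0.575 to 5.5, 4.03 and 5.2 FPKM at 3 months (log2 difference 1.91 ± 0.32 SE, adjusted p = 7.24e-05). Its 3-week rise of 1.09 ± 0.32 was lost without wild-type library 1 or Zp3-Cre library 1 or 3. Zfp819 and Zfp947 rose at 3 weeks by 1.08 ± 0.20 and 1.03 ± 0.20, from means of 0.977 and 0.874 FPKM. Their Gdf9-Cre libraries, which took both into the set, held 6.81, 6.98 and 5.02 and 8.27, 7.95 and 7.56 FPKM against means of 1.18 and 1.47. Zfp141 reached 9.13, 9.76 and 6.69 FPKM in Gdf9-Cre oocytes from 2.84, 2.5 and 2.96 in wild types (log2 difference 1.32 ± 0.16 SE). No wild-type group of Zfp141 reached a mean of 5 FPKM, so deletion libraries took it in and this rise is a description. Zfp54 and Zfp948 were low genes that rose by 1.51 ± 0.13 and 1.29 ± 0.23, and Zfp54 was listed at 0 in some wild-type libraries.

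**Figure D2:**
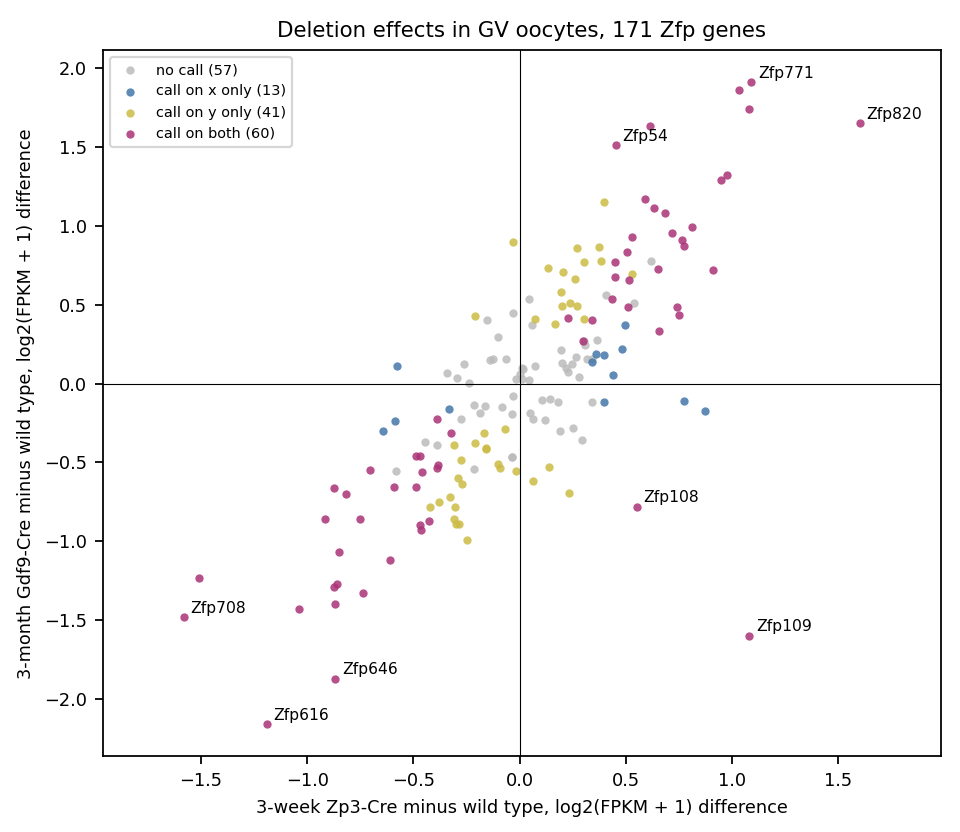
Log2(FPKM + 1) difference between deletion and wild type in 3-week Zp3-Cre oocytes (x) and in 3-month Gdf9-Cre oocytes (y) for the 171 members, coloured by where a member was called. Calls in both models number 60 and follow the diagonal except for Zfp108 and Zfp109 at lower right.

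Zfp708, a KRAB protein known for repressing a retroelement family, had 7.08, 10.4 and 9.32 FPKM in 3-week wild types and 2.44, 2.88 and 1.66 after deletion (log2 difference -1.58 ± 0.33 SE, adjusted p = 0.00126). It stood at 12.3, 10.03 and 8.72 and 2.89, 3.43 and 2.84 at 3 months (log2 difference -1.48 ± 0.33 SE, adjusted p = 0.00106). Zfp616 went from 16.1, 17.01 and 14.1 to 3.22, 2.98 and 2.13 FPKM at 3 months (log2 difference -2.16 ± 0.15 SE, adjusted p = 2.67e-09), and its 3-week difference was -1.19 ± 0.15. Zfp646 had 8.33, 9.23 and 9.15 and 1.71, 1.81 and 1.6 FPKM at 3 months (log2 difference -1.87 ± 0.13 SE, adjusted p = 1.71e-09). Zfp345 fell by 1.04 and 1.43 on the log2 scale in the 3-week and 3-month models, and Zfp939 by 1.51 at 3 weeks. Zfp423, a partner of EBF and SMAD factors, was low in 3-week oocytes and lower after deletion, 2.52, 2.79 and 2.44 and 1.04, 1.01 and 0.671 FPKM (log2 difference -0.92 ± 0.15 SE, adjusted p = 0.00014). None of the deletion libraries of these members reached a wild-type library.

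**Figure D3:**
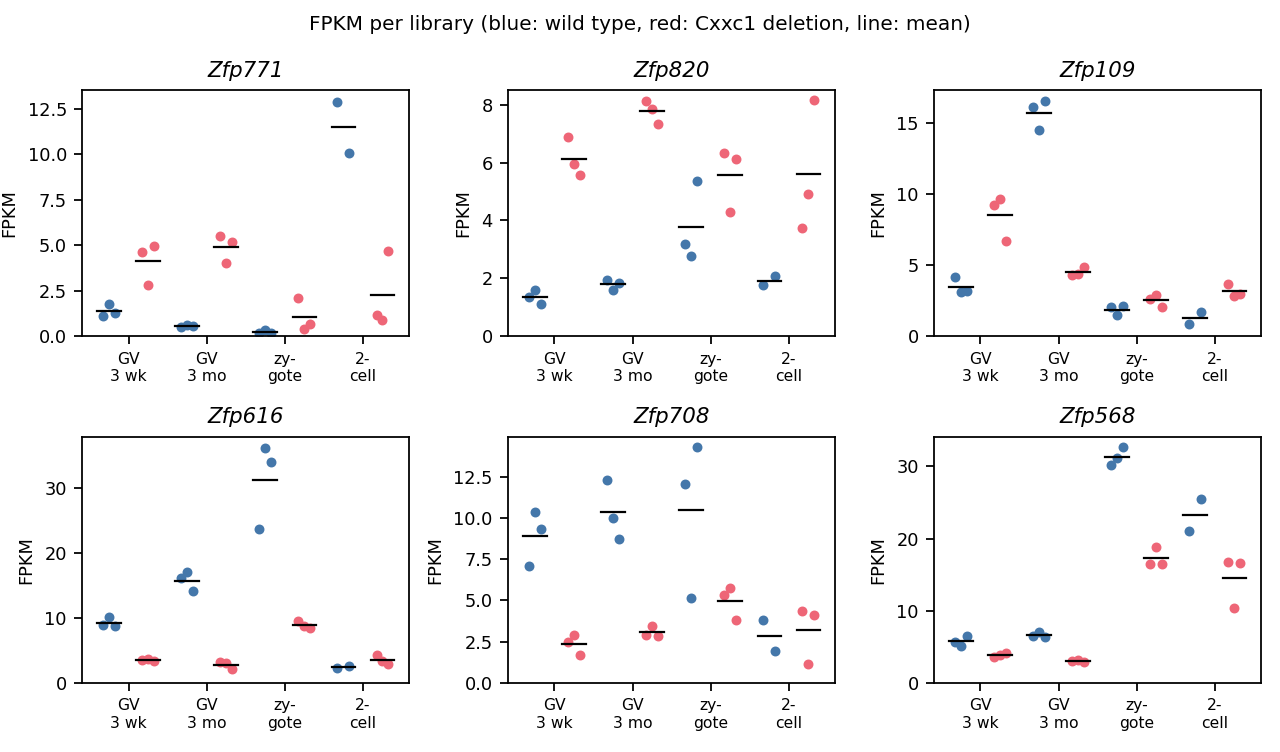
FPKM per library (linear axes from 0) of 6 members in the 8 groups, wild type in blue and deletion in red, with group means as lines. Zfp616 falls from 14.1 to 17.0 FPKM in 3-month wild types to 2.13 to 3.22 in Gdf9-Cre oocytes, and Zfp109 rises with deletion at 3 weeks and falls with it at 3 months.

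Zfp109 and Zfp108 were the only members called in opposite directions in the GV models, 1.17% where 33 of all genes tested (0.24%) and 25 at like level (0.258%) were. Zfp109 rose at 3 weeks to 9.26, 9.67 and 6.74 FPKM (log2 difference 1.08 ± 0.16 SE, adjusted p = 5.87e-05). At 3 months it fell to 4.29, 4.4 and 4.84 (log2 difference -1.6 ± 0.16 SE, adjusted p = 2.57e-07), from the higher wild-type level of that age. Zfp108 reached 64.6, 70.2 and 54.7 FPKM in Zp3-Cre oocytes (log2 difference 0.55 ± 0.16 SE, adjusted p = 0.0137) and 44.01, 51.3 and 47.6 in Gdf9-Cre oocytes (log2 difference -0.78 ± 0.16 SE, adjusted p = 0.000518). The deletion groups of the 2 models thus lay closer to each other than the wild-type groups did for Zfp109, at means of 8.55 and 4.51 against 3.49 and 15.7 FPKM. Adjacent genes of this family can be alike in sequence, and how the authors' quantification shared reads between such copies is not given in the sources used here, so values of single members are uncertain to that extent.

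The test of the difference between the models called 12 members, 3 with a more positive and 9 with a more negative difference at 3 months. This is 7.02%, where 4.89% of all genes tested and 5.14% at like level were called, and of 138 members meeting the rule outside the oocytes 2 and 6 were called. The count was 47 with array weights, 37 with a fit on the groups compared and 6 with a pseudocount of 0.1, and it was 7 without 3-week wild-type library 1 or 3, 3-month wild-type library 2 or Gdf9-Cre library 2. Zfp108 differed by -1.33 ± 0.23, Zfp646 by -1.0 ± 0.18 and Zfp616 by -0.97 ± 0.21. Zfp109, which met the FPKM rule through oocytes only, had a difference of -2.68 ± 0.23, given as a description. Zfp54 differed by 1.06 ± 0.19 and Zfp710 by 0.93 ± 0.23. Zfp710 had 7.45, 7.74 and 8.68 FPKM in 3-month wild types and 15.4, 15.5 and 16.03 in Gdf9-Cre oocytes, and at 3 weeks 11.5, 10.9 and 12.2 and 13.8, 12.03 and 8.6. Its call was lost without any one of 7 libraries, namely wild-type 3-week 1 and 3, wild-type 3-month 1 and 2, Zp3-Cre 3 and Gdf9-Cre 1 and 2. The positive share of these calls was 25% with the deposited values, 21.4% with median-of-ratios scaling and 9.09% with quantile normalization.

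By role, the regulators of known function were split. Of 21 members of a list of DNA-binding regulators, 7 rose and 4 fell at 3 weeks and 5 rose and 4 fell at 3 months, with medians of -0.03 and 0.12 that were -0.12 and -0.12 with quantile normalization. Zfp296 rose in both, to 314.8, 293.8 and 324.3 FPKM at 3 weeks (log2 difference 0.72 ± 0.13 SE, adjusted p = 0.00037) and to 372.4, 403.5 and 397.8 at 3 months from 197.1, 196.1 and 211 (log2 difference 0.95 ± 0.13 SE, adjusted p = 7.73e-06). Zfp217 rose by 1.17 ± 0.12 and Zfp703, a corepressor known from luminal breast cancer, by 1.08 ± 0.12 in Gdf9-Cre oocytes. Of 14 members that act on RNA, ribosomes, ubiquitin, SUMO or the spindle, 5 rose and 4 fell at 3 weeks (median 0.22) and 4 rose and 5 fell at 3 months (-0.14). Zfp106, an RNA-binding protein needed to maintain motor neurons and muscle, rose at 3 weeks from 9.52, 8.57 and 9.54 to 16.2, 15.6 and 16.3 FPKM (log2 difference 0.74 ± 0.11 SE, adjusted p = 5.83e-05).

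Zfp318, which controls the switch between IgM and IgD transcripts in B cells, fell by 0.87 on the log2 scale in Gdf9-Cre oocytes, and Zfp346, which binds double-stranded RNA, by 0.78. Zfp593, taken in through the Zp3-Cre libraries, had 6.43, 8.78 and 4.82 FPKM there and 3.46, 2.82 and 3.03 in wild types. Of 8 KRAB members with known repressive roles, 1 rose and 2 fell at 3 weeks (median 0.12) and 2 rose and 2 fell at 3 months (-0.17). Zfp69, a KRAB gene linked to diabetes in mice, rose at 3 weeks by 0.77 ± 0.17 and Zfp568 fell at 3 months by 0.93 on the log2 scale, both without overlap. These lists were drawn up with earlier results of the data known, and nothing particular to a list is read from its count.

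In zygotes of deletion females 67 members were higher and 31 lower than in wild types, 39.2% and 18.1%. All genes tested gave 35.3% and 11.4%, genes of like level 43.6% and 14.6%, and 169 members meeting the rule elsewhere gave 67 and 29. A 2-fold change was passed upward by 29 and downward by 6, a description without the share of all genes at this cut. The predominance of rises depended on the scaling: the median of the members was 0.19 with the deposited values, -0.04 with median-of-ratios scaling and -0.17 with quantile normalization, the median of all genes being 0.22, 0.01 and -0.07. The higher share of calls was 68.4%, 42.6% and 39.2%, with 43 and 58 members called higher and lower under the first alternative and 38 and 59 under the second. Oocyte markers summed to 7550 to 8440 FPKM in deletion zygotes and 5260 to 6080 in wild types, with 10 of 12 higher, and their part in the rises was not tested.

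Zfp277, a zinc finger protein reported to bring the Polycomb protein BMI1 to Ink4a/Arf, had the largest rise. It stood at 10.5, 10.3 and 11.4 FPKM in wild-type zygotes and 60.1, 66.1 and 62.8 in deletion zygotes (log2 difference 2.45 ± 0.11 SE, adjusted p = 5.88e-13). In 3-week oocytes it had 46.5, 47.7 and 43.1 in wild types and 56.2, 72.6 and 60.5 after deletion. Wild-type zygotes were thus low and deletion zygotes at or above the level of wild-type oocytes, and Zfp160 behaved likewise with 1.13, 1.54 and 1.86 against 5.74, 8.7 and 6.98 FPKM (log2 difference 1.69 ± 0.16 SE, adjusted p = 3.21e-08) and 7.2, 8.22 and 6.96 in wild-type oocytes. Zfp97 and its neighbour Zfp960 rose from 1.77, 2.87 and 2.63 and 2.01, 2.13 and 3.39 to 12.4, 10.8 and 11.5 and 12.4, 10.2 and 11.7 FPKM, by 1.89 ± 0.17 and 1.84 ± 0.17. Zfp672 and Zfp51 rose by 1.89 ± 0.35 and 1.88 ± 0.12. The zygote groups did not overlap in any of these members.

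Falls in zygotes were fewer. Zfp616 had 23.8, 36.3 and 34.02 FPKM in wild-type zygotes and 9.51, 8.69 and 8.45 after deletion (log2 difference -1.69 ± 0.15 SE, adjusted p = 1.37e-08). Zfp957, one of the most abundant members, dropped from 224.8, 250.6 and 202.7 to 86, 95.9 and 89.4 FPKM (log2 difference -1.31 ± 0.11 SE, adjusted p = 6.61e-09). Zfp532, which works with Zfp592, Zfp687 and ZMYND8 in a chromatin complex, fell by 1.37 on the log2 scale, Zfp821 by 1.06 and Zfp942 by 1.04. Zfp592, a partner of Zfp532, went the other way, from 29.7, 24.4 and 29.8 to 80.7, 94.8 and 78.5 FPKM (log2 difference 1.57 ± 0.10 SE, adjusted p = 1.65e-10). Zfp423, taken in through the wild-type zygotes alone, had 14.8, 12.1 and 15.2 FPKM there and 3.51, 2.09 and 3.14 in deletion zygotes.

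Among the 21 DNA-binding regulators 8 rose and 4 fell in zygotes (median 0.14, but -0.22 and -0.27 with median-of-ratios and quantile scaling, with 5 higher and 7 lower, then 5 and 9). Of all genes tested 35.3% were higher and 11.4% lower, and at like level 43.6% and 14.6%. The lists were drawn up with earlier results of the data known, so nothing particular to a list is read from its count. Zfp143 rose from 1.38, 1.97 and 2.32 to 7.33, 10.3 and 9.01 FPKM (log2 difference 1.77 ± 0.13 SE, adjusted p = 9.61e-10), still below the 15.4, 15.9 and 16.3 of wild-type oocytes. Of the 14 RNA and ribosome members 3 rose and 2 fell, 1 and 7 with median-of-ratios scaling. Zfp346 fell by 0.72 on the log2 scale. Of the 8 KRAB members 4 rose and 3 fell. Zfp809, which silences integrated retroviruses in embryonic stem cells, rose from 0.572, 0.742 and 0.843 to 3.32, 3.63 and 2.51 FPKM (log2 difference 1.27 ± 0.22 SE, adjusted p = 7.06e-05). Zfp445, which keeps imprints together with ZFP57, rose from 5.71, 4.8 and 7.43 to 12.7, 11.7 and 13.4 (log2 difference 0.98 ± 0.12 SE, adjusted p = 1.64e-06). The groups did not overlap in Zfp143, Zfp809 or Zfp445.

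The zygote effect differed from the 3-week oocyte effect in 66 members, 45 more positive and 21 more negative in zygotes, 38.6% where 29.4% of all genes tested and 38% of genes at like level were called. The positive share was 68.2% with the deposited values, 36.9% with median-of-ratios scaling and 37.0% with quantile normalization. Zfp345 showed the largest of these, falling with deletion in oocytes and rising in zygotes. Its zygotes had 1.4, 1.84 and 3.37 FPKM in wild types and 6.87, 9.6 and 7.33 after deletion, while oocytes had 23.2, 22.5 and 22.1 and 8.33, 11.4 and 11.96 (log2 difference 2.56 ± 0.30 SE, adjusted p = 1.77e-06 for the difference of effects). In this gene the deletion groups of oocyte and zygote lay between the wild-type extremes. Zfp277 and Zfp160 differed by 2.0 ± 0.15 and 1.71 ± 0.23. Zfp69, Zfp820 and Zfp341 differed by -1.32 ± 0.25, -1.11 ± 0.29 and -1.09 ± 0.18, where the effects in 3-week oocytes were 0.77 ± 0.17, 1.6 ± 0.21 and 0.81 ± 0.13 and those in zygotes -0.55 ± 0.17, 0.49 ± 0.21 and -0.28 ± 0.13, the last pair below the threshold of the test.

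At the 2-cell stage 134 members were called, 69 higher and 65 lower in embryos of deletion females, 40.4% and 38.0%. All genes tested gave 37.1% and 29.4% and genes of like level 44.3% and 30.6%. The falls include members taken in through these libraries. Of the 143 that met the rule outside this comparison, 66 were higher and 40 lower. The genes of like level were not restricted in that way. A 2-fold change was passed downward by 44 members and upward by 29, but among those 143 by 20 downward and 27 upward. The share of all genes at this cut is not given, so these counts are descriptions. Without deletion 2-cell library 3 the counts were 70 higher and 67 lower. The median of the members was 0.14, -0.20 with median-of-ratios scaling and 0.25 with quantile normalization, and the higher share of calls 51.5%, 37.9% and 52.2%. Beside these counts stand the marker lists: oocyte markers were higher in 12 of 12 and 2-cell markers lower in 10 of 11, with the sums given above, and their part in the result was not tested.

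Zfp707 was the largest fall among members that met the rule elsewhere. Wild-type 2-cell embryos had 110 and 107.4 FPKM and deletion embryos 2.85, 1.81 and 1.45 (log2 difference -5.2 ± 0.26 SE, adjusted p = 2.79e-12), so no deletion library came near the wild-type level of this stage. Zfp217 had 60.4 and 51.4 FPKM in wild types and 11.8, 8.69 and 9.43 in deletion embryos (log2 difference -2.38 ± 0.14 SE, adjusted p = 1.66e-11), Zfp639 23.4 and 28.5 and 2.91, 4.27 and 6.15 (log2 difference -2.34 ± 0.26 SE, adjusted p = 1.86e-07). Zfp143 fell to 4.26, 5.27 and 6.07 from 25.02 and 26.7 FPKM (log2 difference -2.13 ± 0.15 SE, adjusted p = 1.76e-10), after having been higher than wild type in zygotes. Zfp771 fell by 2.12 on the log2 scale, the reverse of its rise in oocytes. Wild-type and deletion libraries were separate in these 5 members.

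Members taken in through the wild-type 2-cell libraries show the same contrast in level, as the choice ensures. Zfp622, whose yeast counterpart matures the large ribosomal subunit, had 120.1 and 89.8 FPKM in wild-type 2-cell embryos, 4.27, 2.18 and 5.6 in deletion embryos and at most 3.65 in any oocyte or zygote library. Zfp263 had 9.27 and 13.1 and 0.562, 0.601 and 1.43, Zfp809 17.8 and 21.9 and 3.03, 1.88 and 2.79, and Zfp346 11.02 and 13.4 and 1.06, 0.808 and 1.58.

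**Figure D4:**
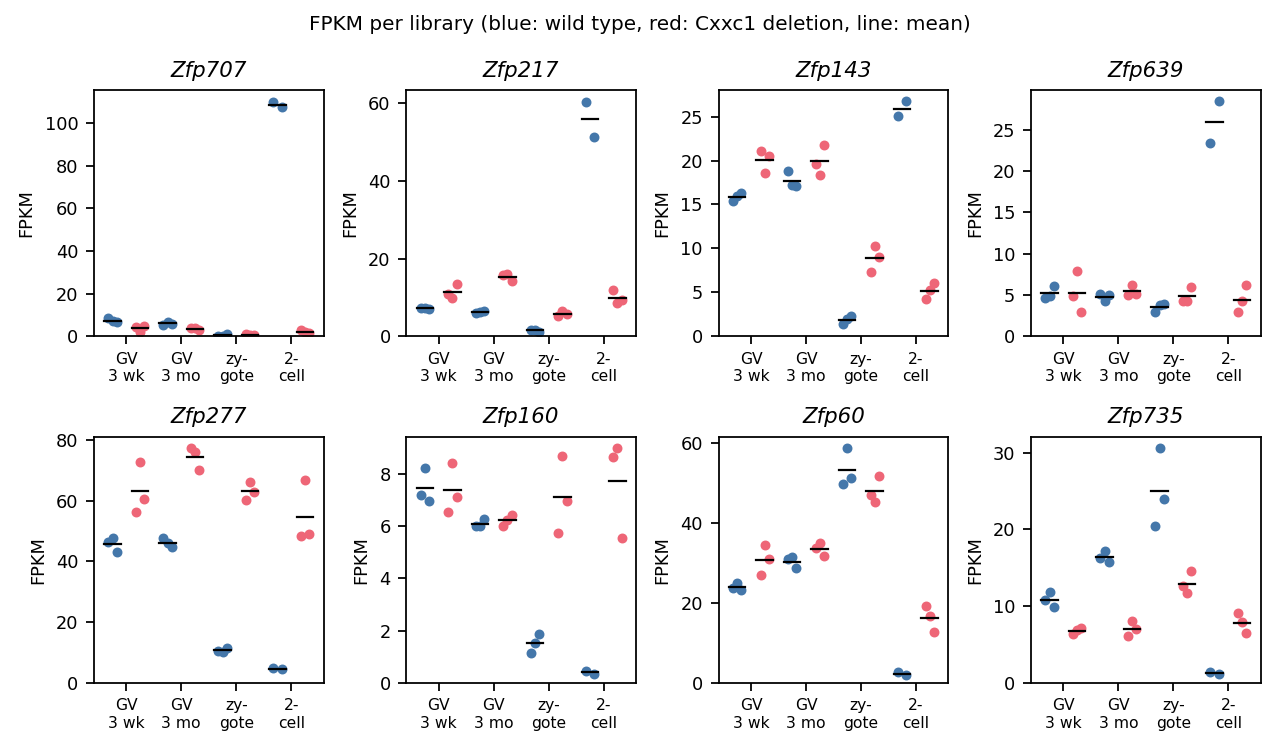
FPKM per library (linear axes from 0) of 8 members in the 8 groups, wild type in blue and deletion in red, with group means as lines. Zfp707, Zfp217, Zfp143 and Zfp639 are high in wild-type 2-cell embryos and low after deletion there, and Zfp277, Zfp160, Zfp60 and Zfp735 are low in wild-type 2-cell embryos and higher after deletion.

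The 5 largest rises were in members that were scarce or reduced in wild-type 2-cell embryos. All 5 had fallen from wild-type zygote to wild-type 2-cell embryo, a comparison that shares the wild-type 2-cell libraries. Zfp277 had 4.67 and 4.39 FPKM in wild types and 48.2, 66.9 and 48.9 in deletion embryos (log2 difference 3.31 ± 0.12 SE, adjusted p = 2.97e-14). Zfp160 had 0.461 and 0.344 and 8.66, 9.01 and 5.54 FPKM (log2 difference 2.62 ± 0.18 SE, adjusted p = 1.56e-10). Zfp750, a regulator of epidermal differentiation that is abundant in oocytes, had 11.1 and 8.75 and 73.9, 70.8 and 52.02 (log2 difference 2.6 ± 0.12 SE, adjusted p = 8.44e-13). Zfp60 had 2.64 and 1.88 and 19.3, 16.8 and 12.8 (log2 difference 2.4 ± 0.14 SE, adjusted p = 1.5e-11), after no called change in zygotes, and Zfp97 rose by 2.11 ± 0.19. In each case the lowest deletion library lay above the highest wild-type library. In 4 of the 5, all but Zfp277, the lowest deletion value came from library 3, the one that stood apart.

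Sequence upstream of 6 of these members is shown because CFP1 binds CpG through its CXXC domain and the members differ in direction and in CpG content. Each run is the 200 bases before the annotated start (RefSeq, GRCm38.p6), 5′ to 3′ on the gene's strand, with CG in capitals. For Zfp143, which had 2 promoter windows, the start was taken from the window with the most CpG. Zfp143 (chr7:110061502-110061701, plus strand) and Zfp639 (chr3:32510392-32510591, plus) were lower in deletion 2-cell embryos. Zfp277 (chr12:40445791-40445990, minus), Zfp160 (chr17:21008741-21008940, plus) and Zfp97 (chr17:17121183-17121382, plus) were higher. Zfp957 (chr14:79247368-79247567, minus) was lower in all 4 deletion comparisons.
Zfp143: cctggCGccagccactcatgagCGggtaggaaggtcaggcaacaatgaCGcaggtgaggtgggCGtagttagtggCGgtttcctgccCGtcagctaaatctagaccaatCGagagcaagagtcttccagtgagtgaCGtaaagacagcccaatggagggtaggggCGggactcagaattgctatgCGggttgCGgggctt
Zfp639: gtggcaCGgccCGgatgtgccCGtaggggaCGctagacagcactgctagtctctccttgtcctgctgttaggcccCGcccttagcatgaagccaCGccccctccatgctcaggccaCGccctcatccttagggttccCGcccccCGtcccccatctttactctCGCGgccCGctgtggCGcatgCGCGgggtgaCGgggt
Zfp277: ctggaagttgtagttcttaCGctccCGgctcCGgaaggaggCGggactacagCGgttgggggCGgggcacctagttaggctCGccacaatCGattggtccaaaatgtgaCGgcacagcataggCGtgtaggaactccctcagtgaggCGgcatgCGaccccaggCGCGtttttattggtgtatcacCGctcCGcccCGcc
Zfp160: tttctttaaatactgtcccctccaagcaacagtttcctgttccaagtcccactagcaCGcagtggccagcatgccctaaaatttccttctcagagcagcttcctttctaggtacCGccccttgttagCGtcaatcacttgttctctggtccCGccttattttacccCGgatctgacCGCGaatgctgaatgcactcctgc
Zfp97: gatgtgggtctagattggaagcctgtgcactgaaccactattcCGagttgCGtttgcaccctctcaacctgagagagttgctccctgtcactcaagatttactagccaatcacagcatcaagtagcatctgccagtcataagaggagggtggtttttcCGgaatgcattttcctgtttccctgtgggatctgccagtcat
Zfp957: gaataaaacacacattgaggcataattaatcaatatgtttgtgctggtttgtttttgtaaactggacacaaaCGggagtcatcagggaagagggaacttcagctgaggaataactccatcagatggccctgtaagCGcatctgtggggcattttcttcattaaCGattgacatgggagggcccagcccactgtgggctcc

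The printed stretches hold 11 CpG for Zfp143, 16 for Zfp639, 17 for Zfp277, 7 for Zfp160, and 3 each for Zfp97 and Zfp957, so CpG-poor and CpG-rich windows occurred on both sides. A promoter window of 250 bases before to 50 after the start could be matched for 142 of the 171 members, Zfp707 not among them. Where a gene had several windows, the one with the most CpG was taken, in members and backgrounds alike, so the CpG numbers lean high. The window held a median of 17 CpG (1 to 59) in members, 23 in 7410 genes of like level and 8 in all 27025 genes with a window. Members higher in zygotes had a median of 14 and lower ones 20, and at 2 cells the medians were 14 and 19. For members higher in all 4 comparisons the median was 13.5 (14 with a window) and for those lower in all 4 it was 21 (5 with a window). In 3-week oocytes the order was the opposite, 17 for higher and 14 for lower members, and at 3 months 17 and 15. The motif ACTACAA, searched on both strands, was found in 7 windows of members, 4.93%, against 4.72% at like level and 3.33% of all genes. Methylation and histone marks at these windows were not analysed here, and the counts are descriptions.

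By role, 14 of 21 DNA-binding regulators were lower and 5 higher in deletion 2-cell embryos, with a median of -0.99, while wild types raised 14 and lowered 3 of them from zygote to 2 cells. With deletion, 29.4% of all genes tested were lower and 37.1% higher, and 38.0% and 40.4% of the 171 members. From wild-type zygote to 2 cells, 44.5% of all genes tested rose and 24% fell. The 2 comparisons share the wild-type 2-cell libraries, and 4 of the 21 met the FPKM rule only with 2-cell libraries: among the 17 others, 10 were lower and 5 higher (median -0.90). Of the 21, 15 were lower and 3 higher with median-of-ratios scaling, and 14 and 6 with quantile normalization. The list was drawn up with earlier results of the data known, so nothing particular to it is read from these counts. Zfp296 fell to 29.8, 35.6 and 40.6 FPKM from 127.3 and 110.9 (log2 difference -1.73 ± 0.15 SE, adjusted p = 2.92e-09), and Zfp703 by 1.38 on the log2 scale, both having risen in oocytes. RNA and ribosome members were higher in 8 and lower in 4 of 14 with a median of 0.35, but 3 were higher and 6 lower with median-of-ratios scaling. KRAB members were higher in 3 and lower in 2 of 8. Zfp69 rose from 1.86 and 1.58 to 6.87, 10.3 and 4.88 FPKM (log2 difference 1.57 ± 0.20 SE, adjusted p = 7.3e-07).

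The 2-cell effect differed from the zygote effect in 102 members, 39 more positive and 63 more negative at 2 cells, 59.6% where 53.9% of all genes tested and 63.3% at like level were called. The positive share was 38.2%, 39.4% with median-of-ratios scaling and 58.3% with quantile normalization, and the 137 members that met the rule in oocytes gave 34 and 37. Both effects were higher in 38 members, 22.2% where all genes tested gave 20.5% and genes of like level 25.5%, and both lower in 13, 7.6% against 3.77% and 4.88%. In 21 members the effect was higher in zygotes and lower at 2 cells, 12.3% against 7.57% and 9.9%. In 9 it was lower in zygotes and higher at 2 cells, 5.26% against 3.55% and 4.84%. These 4 counts include members taken in through the libraries compared. Zfp735 belonged to the last kind, with 20.5, 30.6 and 23.97 FPKM in wild-type and 12.6, 11.7 and 14.5 in deletion zygotes, then 1.4 and 1.2 and 9.14, 7.92 and 6.45 at 2 cells (log2 difference 2.82 ± 0.21 SE, adjusted p = 1.08e-09 for the difference). Zfp60 and Zfp750 differed by 2.55 ± 0.19 and 2.27 ± 0.16. Zfp707, Zfp143 and Zfp217 differed by -5.39 ± 0.35, -3.9 ± 0.20 and -3.84 ± 0.18. Between the zygote and 2-cell effects of the 171 members r was 0.201, between 3-month oocytes and 2-cell embryos -0.0471, values that describe genes sharing library kit and annotation.

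**Figure D5:**
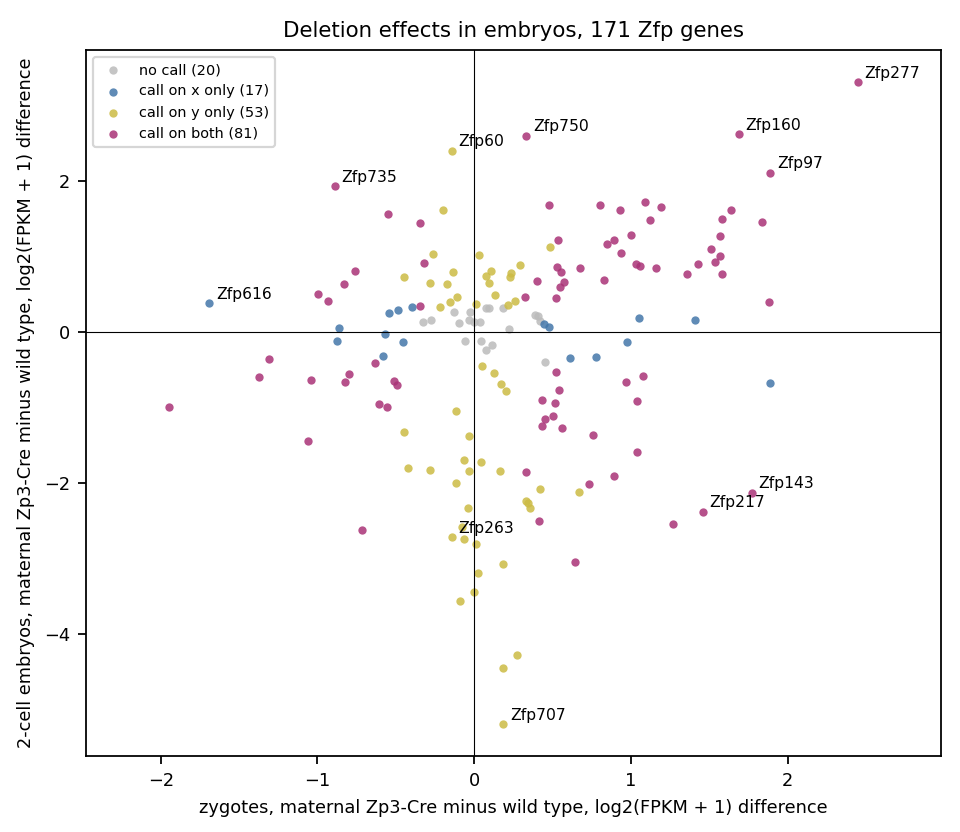
Log2(FPKM + 1) difference between embryos of deletion and wild-type females in zygotes (x) and 2-cell embryos (y) for the 171 members, coloured by where a member was called. Calls at both stages number 81, and 21 of them lie at lower right, such as Zfp143 and Zfp217.

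A group of 16 members was higher in all 4 deletion comparisons, namely Zfp106, Zfp141, Zfp27, Zfp277, Zfp51, Zfp512, Zfp592, Zfp618, Zfp628, Zfp677, Zfp819, Zfp90, Zfp947, Zfp958, Zfp963 and Zfp97. This is 9.36% of members, where 6.21% of all genes tested and 7.63% at like level were. Another 7 were lower in all 4, namely Zfp131, Zfp423, Zfp532, Zfp534, Zfp568, Zfp664 and Zfp957, 4.09% against 1.53% and 2.01%. With median-of-ratios scaling 10 of the 16 remained and with quantile normalization 9, while all 7 lower ones remained under both, among 11 and 13 then lower in all 4. Zfp27, Zfp677, Zfp819 and Zfp947 did not meet the FPKM rule without the 3-month oocytes, Zfp677 not without the 2-cell libraries and Zfp423 not without the zygotes, so their values there are descriptions. Zfp141 and Zfp618 reached a group mean of 5 FPKM only in deletion groups, so their rises are descriptions too.

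Of the rises, Zfp628 had log2 differences of 0.77 ± 0.13 and 0.87 ± 0.13 in oocytes, 1.03 ± 0.13 in zygotes and 0.9 ± 0.15 at 2 cells. Its wild-type 3-week libraries had 13.7, 12.7 and 12.5 FPKM and its Zp3-Cre libraries 24.1, 20.3 and 24.5. Zfp141, taken in through deletion libraries, rose in deletion 2-cell embryos from 3.47 and 2.43 to 9.57, 10.01 and 10.6 FPKM (log2 difference 1.5 ± 0.18 SE, a description). This was close to its deletion level in zygotes of 8.71, 10.5 and 10.2. Zfp90, Zfp512 and Zfp618 rose by 1.16 ± 0.15, 1.48 ± 0.16 and 1.01 ± 0.20 at 2 cells. Zfp592 rose by 1.27 ± 0.11 at 2 cells but by no more than 0.3 ± 0.10 in oocytes, where its calls were lost under both other scalings.

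Some calls of these steady members rested on single libraries. In the 3-week model, leaving out wild-type library 1 ended the calls of Zfp592, Zfp963 and Zfp532. Wild-type library 2 did so for Zfp592 and Zfp963, and wild-type library 3 for Zfp592, Zfp958, Zfp532 and Zfp568. Zp3-Cre library 1 did so for Zfp592, Zfp532 and Zfp568, library 2 for Zfp592 and Zfp958, and library 3 for Zfp958, Zfp963 and Zfp532. In the 3-month model the call of Zfp592 was lost without wild-type library 1, 2 or 3 or Gdf9-Cre library 2 or 3, and that of Zfp27 without wild-type library 2 or 3 or Gdf9-Cre library 1 or 3.

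Embryo calls were lost in the following cases. Zfp106 lost its zygote call without wild-type library 1 or deletion library 3, Zfp27 without wild-type library 2, and Zfp534 without wild-type library 2 or deletion library 3. At 2 cells Zfp106 and Zfp534 lost theirs without wild-type library 1, Zfp819 without wild-type library 2, Zfp51 without wild-type library 1 or 2 or deletion library 2, and Zfp957 without wild-type library 2 or deletion library 3. For Zfp106 in zygotes, median-of-ratios scaling gave -0.13 in place of 0.33.

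Among the steady falls, Zfp131, a BTB-domain zinc finger protein, had 32.8, 28.1 and 28.7 FPKM in 3-month wild types and 16.4, 15.5 and 14.6 after deletion (log2 difference -0.9 ± 0.12 SE, adjusted p = 6.93e-06). At 2 cells it had 49.7 and 47.3 and 21.7, 27.8 and 24.2 (log2 difference -0.96 ± 0.14 SE, adjusted p = 3.68e-06). Zfp664 had 187.1, 183 and 175.3 FPKM in wild-type and 113.7, 90.4 and 109.6 in deletion zygotes (log2 difference -0.8 ± 0.08 SE, adjusted p = 3.9e-08). Zfp568 was lower after deletion in zygotes, 16.5, 18.8 and 16.5 FPKM (log2 difference -0.83 ± 0.14 SE, adjusted p = 4.63e-05), and at 2 cells, 16.8, 10.3 and 16.6 against 21.04 and 25.4 (log2 difference -0.66 ± 0.15 SE, adjusted p = 0.000802). Zfp534 fell by 1.27 on the log2 scale at 3 months and by 0.65 at 2 cells. The groups of these members did not overlap in the comparisons given.

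Calls in both directions were made in 55 members, higher in one deletion comparison and lower in another. This is 32.2%, where 24% of all genes tested and 29.8% at like level were, so the members lay near the like-level share. The count includes members taken in through the libraries compared. A further 8 had no call in any of the 4, 4.68% against 12.2% and 5.75%. Zfp961, Zfp956 and Zfp653 were the most abundant of them. Zfp961 had 17.97, 23.04 and 21.3 FPKM in 3-week wild types and 24.9, 24.6 and 21.4 after deletion, and 25.3 and 24.6 and 22.3, 23.5 and 20.3 at 2 cells. Its differences in the 4 comparisons were 0.18 ± 0.11, -0.12 ± 0.11, 0.12 ± 0.11 and -0.18 ± 0.12, and none of these passed the test.

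Position along the chromosomes was read only as the order of genes. By that order 53 members lay next to another member, in 21 runs with 32 adjacent pairs. Both genes of a pair were called in 4 pairs in 3-week oocytes, all in the same direction, in 13 pairs at 3 months with 7 in the same direction, in 6 pairs in zygotes, all in the same direction, and in 18 pairs at 2 cells with 12 in the same direction. Shares for pairs of other genes are not given, so these pair counts are descriptions. Zfp677, Zfp54 and Zfp51 were higher together in both oocyte models and in zygotes. In deletion 2-cell embryos Zfp51 was higher and Zfp54, taken in through wild-type 2-cell libraries, had 0.512, 0.783 and 0.287 FPKM against 7.51 and 7.75. Neighbouring members can be near-copies that share reads. This was not measured here, so their calls cannot be taken as independent.

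The corepressor that KRAB proteins recruit was measured in the same libraries. Of 17 genes of the TRIM28 pathway, 2 rose and 3 fell in 3-week oocytes (18.3% and 11.3% of all genes), 5 and 5 at 3 months (34.2% and 15.2%), 7 and 6 in zygotes (35.3% and 11.4%) and 8 and 5 at 2 cells (37.1% and 29.4%). Their medians were 0.01, 0.06, 0.37 and 0.45 (-0.04, -0.08, 0.04 and 0.07 with median-of-ratios scaling). Trim28 itself was not called in 3-week oocytes, 111.5, 105.7 and 106.1 FPKM in 3-week wild types and 97.9, 89.2 and 109.7 after deletion (log2 difference -0.13 ± 0.11 SE, adjusted p = 0.423). At 2 cells it fell to 26.9, 22.2 and 32.8 from 91.4 and 93.4 FPKM (log2 difference -1.74 ± 0.12 SE, adjusted p = 2.07e-10). Dnmt1, the maintenance DNA methyltransferase, fell in oocytes by 1.08 at 3 weeks and 1.40 at 3 months on the log2 scale. Hdac1 rose by 0.96 ± 0.18 and 1.02 ± 0.18 in oocytes and 2.0 ± 0.18 in zygotes and fell by 2.56 at 2 cells. Zfp57, which guards imprints, was higher by 3.61 ± 0.19 in deletion 2-cell embryos, at 930.8, 839.7 and 472.3 FPKM against 56.4 and 58.9 in wild types. Both lay below the 3-week oocyte means of 1490 FPKM after deletion and 1270 in wild types. Protein sequences of the members were not analysed here, so the members were not sorted by KRAB domain or number of fingers.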

How the data were processed

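RNA sequencing libraries of mouse GV oocytes, zygotes and 2-cell embryos were used as 1 table of FPKM values deposited by the authors, with a column for each of the 23 samples. CASAVA 1.4, TopHat2 2.0.12, Cufflinks 2.2.1, Bismark 0.7.6 and SAMtools are named in the submitters' processing notes, with builds mm10 and mm9 and no statement of which applied to RNA. Per the labels' protocols, libraries were made with a NEBNext Ultra kit; the sources used here do not give strand, annotation or depth, so no counting error is attached.

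Log2(FPKM + 1), computed from the deposited values, understates changes of low genes. Entries with at least 1 FPKM in at least 2 libraries were fitted as 8 group means with limma 3.58.1 (R 4.3.3, mean-variance trend, 15 residual degrees of freedom, no replicate block). A call is a Benjamini-Hochberg adjusted p under 0.05 over all 13776 genes. The test was tried on simulated data with large changes and independent noise. That setting does not check smaller changes or shifts shared by most genes.

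Named members were the 5 largest called rises and falls of each deletion and stage comparison (3 for differences of effects and age) without overlap between groups, and meeting the FPKM rule elsewhere. Added to these were the 3 highest members of a group, members called the same way in all 4 deletion comparisons, the 3 nearest the FPKM threshold, the 2 largest called of each list and the 3 most abundant members without a call. No member lacked a call in all 10 comparisons, so the last rule was applied to the 4 deletion comparisons after the values were seen. Other names were chosen after their values were seen. Members, lists and rules were chosen with earlier results of these data known. Alternatives were another pseudocount (0.1), no filter or a filter at 5 FPKM, median-of-ratios or quantile scaling, array weights, a fit on the groups compared, a replicate block, 2 other rules for members, and leaving out each library. Promoter windows and gene order came from RefSeq tables (GRCm38.p6), read with Python 3.11.15; figures were drawn with matplotlib 3.10.9.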

Additional observations from a re-analysis of the deposited data

Results flagged for a closer look

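The results given here were set apart because the effect of Cxxc1 deletion differed between the oocyte models or between stages by a test of the difference itself (limma, adjusted over all genes tested). No explanation was tested for any of them.

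Between the oocyte models 12 members were called, 8 of them among the 138 that met the FPKM rule outside the libraries compared. The 3-month Gdf9-Cre effect was above the 3-week Zp3-Cre effect by 1.06 on the log2(FPKM + 1) scale in Zfp54 and by 0.93 in Zfp710. The difference was -1.33 in Zfp108, -1.0 in Zfp646 and -0.97 in Zfp616.

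Between zygotes and 3-week oocytes 66 members were called, 62 of them among the 166 that met the rule elsewhere. The zygote effect was above the oocyte effect by 2.56 in Zfp345, 2.00 in Zfp277 and 1.71 in Zfp160. The difference was -1.32 in Zfp69, -1.11 in Zfp820 and -1.09 in Zfp341.

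Between 2-cell embryos and zygotes 102 members were called, 71 of them among the 137 that met the rule elsewhere. The remaining members were chosen through the libraries compared, so their calls are a description. The 2-cell effect was above the zygote effect by 2.82 in Zfp735, 2.55 in Zfp60 and 2.27 in Zfp750. The difference was -5.39 in Zfp707, -3.90 in Zfp143 and -3.84 in Zfp217.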

How the results depend on the processing

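Quantile normalization gave 26 members higher in 3-week oocytes (41 with the deposited values), 31 higher at 3 months (48), 38 higher and 59 lower in zygotes (67 and 31), 74 higher and 60 lower from wild-type oocyte to zygote (39 and 93), and 85 lower from wild-type zygote to 2-cell embryo (46). Median-of-ratios scaling gave 43 higher and 58 lower in zygotes, and turned the zygote difference of Zfp106 from 0.33 to -0.13 (adjusted p = 0.412). These scalings moved the median of all genes by up to 0.55 on the log2 scale. Taking members by a mean of at least 5 FPKM over all libraries (114 members) gave 27 higher in 3-week oocytes, 35 lower in 2-cell embryos (65), 44 higher from wild-type zygote to 2-cell embryo (76), 6 for the difference between the oocyte models (12) and 64 for that between 2-cell embryos and zygotes (102). Members meeting the rule outside the comparison gave 40 lower in 2-cell embryos. For age, array weights gave 50 and a fit on the groups compared 45 (9). For the difference between the oocyte models these gave 47 and 37, and a pseudocount of 0.1 gave 6. The cause of these shifts was not tested.

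Leaving out 1 library gave 5 to 7 members for age and 7 to 11 for the difference between the oocyte models. The other counts stayed within 1.5 times under this, from 29 to 34 higher in 3-week oocytes to 98 to 108 for the difference between 2-cell embryos and zygotes. Over 186 results on named genes, 2548 alternative values kept direction and call, 103 lost the call and 1 was reversed. With the replicate number as a block, 39 members were higher and 31 lower in 3-week oocytes, 47 and 53 at 3 months, 67 and 33 in zygotes and 70 and 64 at 2 cells. Deletion and wild-type libraries of equal number correlated at -0.0689 to 0.0576 in their deviations from group means. With 2 or 3 libraries a group, such values cannot show whether equal numbers mark a shared animal or batch.

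Depth is unknown, 2 or 3 libraries a group limit the precision, and FPKM cannot tell a change in total RNA from one in composition.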
